A study of Saccharomyces cerevisiae with 21 samples.

Results

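Yeast cells that had been dried and rewetted were compared at 360 min and at 90 min after the start of rehydration, on 3 arrays per time point. These 6 arrays were chosen by their sample titles out of 21 arrays in 7 groups, and all 9275 probe sets that were not control sets entered the comparison. The cells were Saccharomyces cerevisiae BY4743, a diploid laboratory strain of S288C background that lacks HIS3, LEU2 and URA3 and is heterozygous for deletions of LYS2 and MET17. Both groups had been grown in rich glucose medium at 30 °C to an absorbance of 0.8, moved to the same medium diluted 20-fold, and dried over 42 h at 22 to 25 °C in dishes holding 15 ml. They were then held for 72 h at 20% relative humidity and rewetted with the diluted medium, and the cells of 4 dishes were joined in a flask of 250 ml. The groups therefore differed in the time after rewetting and shared every earlier step. The labels do not say whether the replicates were separate cultures, or whether arrays of the same replicate number came from the same flask, so the p-values measure only the spread between these samples.

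When budding yeast leaves rich medium and dries, it stops dividing, cuts the synthesis of ribosomes and turns to respiration, storage sugars and stress proteins. A return to growth is known to bring back transcripts for ribosomal proteins, for the small nucleolar RNAs and proteins that build ribosomes, and for G1 cyclins, while transcripts of the stress and stationary phase programmes decline. Respiratory complexes are built from subunits encoded in the nucleus and a few encoded in the mitochondrial genome, so that transcripts of both genomes belong to the same enzymes.

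The deposited values are linear signals of probe sets, and all signals quoted below are these values. Differences and tests use log2(signal + 17.74) after quantile normalization, which gives every array the same distribution of values, and are 360 min minus 90 min with their standard error (SE). A probe set was called higher or lower when its Benjamini-Hochberg adjusted p from limma was under 0.05 and the change was at least 2-fold, and "rose" and "fell" are used only for called genes. For each gene the brightest probe set stands.

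The 2 sets of arrays differed in more than single genes. Array medians lay between 163.7 and 177.3 at 90 min and between 141.2 and 145.6 at 360 min, while the highest signal was 9116.5 to 10728.6 at 90 min and 20672.5 to 30741.3 at 360 min. Replicates correlated across probe sets at 0.985 to 0.990 at 90 min and at 0.967 to 0.977 at 360 min. The 9 probe sets for hybridization controls, bacterial and phage transcripts added to each sample before hybridization, averaged 9.37 ± 0.13 on the log2 scale of the deposited signals at 90 min and 10.85 ± 0.24 at 360 min (SD, n = 3 arrays each), a difference of 1.47 or 2.78-fold. Each of the 9 was brighter on every 360 min array, by 1.05 to 1.72. Setting the arrays level on these controls therefore lowers every difference of the deposited scaling by their mean, 1.47, and differences after quantile normalization by unequal amounts. Under that scaling 9 probe sets were called higher and 7605 lower, and the medians of all gene groups described below as higher lay under 0. The statements below are therefore about genes relative to the other genes of the same array, and fewer cells of a kind or less RNA per cell cannot be told apart in these bulk samples. Per the run records, the 90 min arrays were hybridized in run 5 and the 360 min arrays in run 6, all read on the same day, so run and time point cannot be told apart. The 3′ minus 5′ log2 difference, a measure of RNA or target length, went from 2.24 ± 0.24 to 2.71 ± 0.17 for the ACT1 control sets and from 2.18 ± 0.09 to 2.74 ± 0.28 for SPT15, but from 2.65 ± 0.26 to 2.36 ± 0.02 for SRB4 (SD, n = 3). The part of these array properties in the results was not tested.

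**Figure D1:**
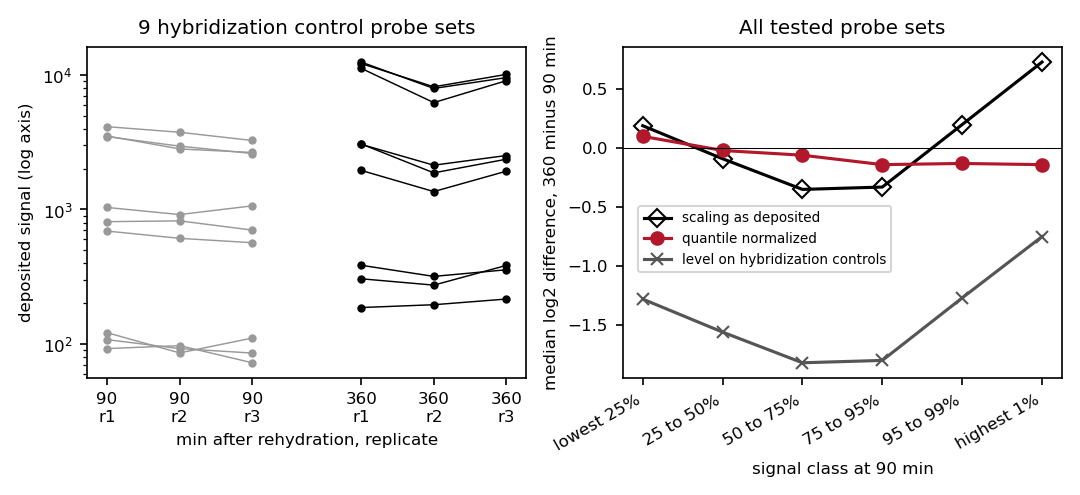
Left, deposited signal (log axis) of the 9 hybridization control probe sets on the 3 arrays at 90 min (grey) and the 3 at 360 min (black), a line joining the arrays of a probe set within a group; every set was brighter at 360 min, by a mean of 1.47 on the log2 scale. Right, the median log2 difference of all tested probe sets in 6 classes of signal at 90 min: from -0.35 to 0.73 with the deposited scaling, from -0.14 to 0.10 after quantile normalization, and under 0 in every class with arrays set level on the controls.

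Of the 9275 probe sets, 341 were called higher at 360 min (3.68%) and 267 lower (2.88%). Counting 1 probe set per gene, 174 of 5656 genes rose (3.08%) and 213 fell (3.77%), and among 5467 nuclear protein-coding genes 92 rose (1.68%) and 212 fell (3.88%). The median difference was -0.14 over all genes and -0.16 over nuclear protein-coding genes, so a list median a little under 0 is near that of all genes. The groups did not overlap for 605 of the 608 called probe sets and for 4354 of all 9275. A lack of overlap, given below for single genes and for small sets of genes, therefore adds no separate support to a call. The split between directions moved with the scaling: 56.1% of the calls were higher after quantile normalization, 41.8% with the deposited scaling, 78.5% with arrays centred on their median and 0.1% with arrays level on the hybridization controls. The last 3 scalings put the median of all probe sets at -0.08, 0.14 and -1.55 in that order, against -0.01 after quantile normalization. Under quantile, deposited and median scaling alike, 202 probe sets were called higher and 190 lower.

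Relative to the other genes of the array, nuclear and mitochondrial transcripts of the respiratory enzymes went in opposite directions. Of 45 nuclear genes for the respiratory chain and ATP synthase, 8 fell and 0 rose, 39 lay below 0, and the median difference was -0.55. Of 16 genes of the mitochondrial genome, 10 rose and 0 fell, all 16 lay above 0, and the median was 1.07, although with arrays level on the hybridization controls it was -0.35 and that of the nuclear genes -2.23. With the deposited scaling these medians were 1.12 and -0.76. Only 7 of the 16 encode respiratory subunits, and 4 of these 7 rose. Their median was 1.03, or -0.13 with arrays level on the hybridization controls. Another 8 encode proteins of introns, of which 6 rose (median 1.22). A similar difference was found outside respiration. All probe sets of the mitochondrial genome, of small nucleolar RNAs and of transfer RNAs had medians of 0.93, 0.93 and 0.94, against -0.14 for protein-coding sets. Whether the mitochondrial difference is particular to respiratory genes was not tested, nor was how far signals of these kinds follow RNA amount.

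COX9, which encodes a small subunit of cytochrome c oxidase, read 2870.0, 2201.4 and 2209.8 at 90 min and 391.8, 459.4 and 627.2 at 360 min. All 3 late arrays lay far below the early ones, and COX9 fell by 1.94 ± 0.16 (limma, adjusted p = 0.000267). COX5A, the subunit 5 isoform of aerobic cells, read 1119.7, 1034.2 and 1114.0 and then 254.3, 299.6 and 248.7, again with no overlap (-1.66 ± 0.09, limma adjusted p = 0.000158). CYC7, the minor isoform of the electron carrier cytochrome c, read 135.6, 162.5 and 125.7 and then 15.4, 33.7 and 57.1 (-1.73 ± 0.33). The late CYC7 values were low and spread more than those of the other respiratory genes. QCR10, a subunit of the cytochrome bc1 complex, read 1014.7, 890.4 and 808.0 and then 185.7, 286.8 and 248.6 (-1.56 ± 0.15). A second subunit of that complex, the Rieske iron-sulfur protein RIP1, is present on the array both as a gene and as a control probe set outside the test, and the separate control set differed by -1.33 on the deposited scale. RIP1 itself fell by 1.41 ± 0.1, from 1276.6, 1128.3 and 1299.5 to 359.8, 406.1 and 323.4.

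The counts differed between the complexes. Of 9 nuclear genes of cytochrome c oxidase, 4 fell and 8 lay below 0 (median -0.84), the exception being COX5B at 0.15, the isoform of low oxygen. In the cytochrome bc1 complex 2 of 9 fell and the median was -0.35, and in ATP synthase 1 of 14 fell and the median was -0.51. ATP3, the gamma subunit of the ATP synthase core, fell by 1.29 ± 0.09, whereas ATP1 and ATP2, which encode the alpha and beta subunits of the same core, differed by -0.03 and -0.10. These subsets were formed by gene name after the values had been seen.

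On the mitochondrial side, 4 of the 7 measured respiratory genes rose. All 7 were higher on each 360 min array than on each 90 min array. Over the whole array the groups did not overlap, in either direction, for 4354 of 9275 probe sets. COB, the mitochondrially encoded cytochrome b of the bc1 complex, read 802.8, 840.5 and 622.4 at 90 min and 1877.4, 2234.3 and 2550.8 at 360 min, and rose by 1.5 ± 0.13 (limma, adjusted p = 0.000347). Its second probe set differed by 1.78. ATP6, a subunit of the proton channel of ATP synthase, read 1200.8, 1162.6 and 605.7 and then 2588.0, 3627.0 and 3034.3 (1.51 ± 0.25), with the lowest late array above the highest early array. COX3 and ATP8 rose as well, by 1.03 and 1.10, and COX2, COX1 and OLI1 stood at 0.79, 0.45 and 0.58 without a call. Genes within mitochondrial introns were among the rises: SCEI, the homing endonuclease of the ribosomal RNA intron, read 71.5, 110.8 and 30.0 and then 202.3, 359.7 and 398.5 (2.22 ± 0.37). BI4, a maturase that helps splice the COB transcript, read 70.2, 82.6 and 53.5 and then 115.5, 254.7 and 283.4 (1.57 ± 0.33), but its dimmer probe set differed by 0.32. The third late array was the highest for COB, SCEI and BI4 and the first late array the lowest.

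**Figure D2:**
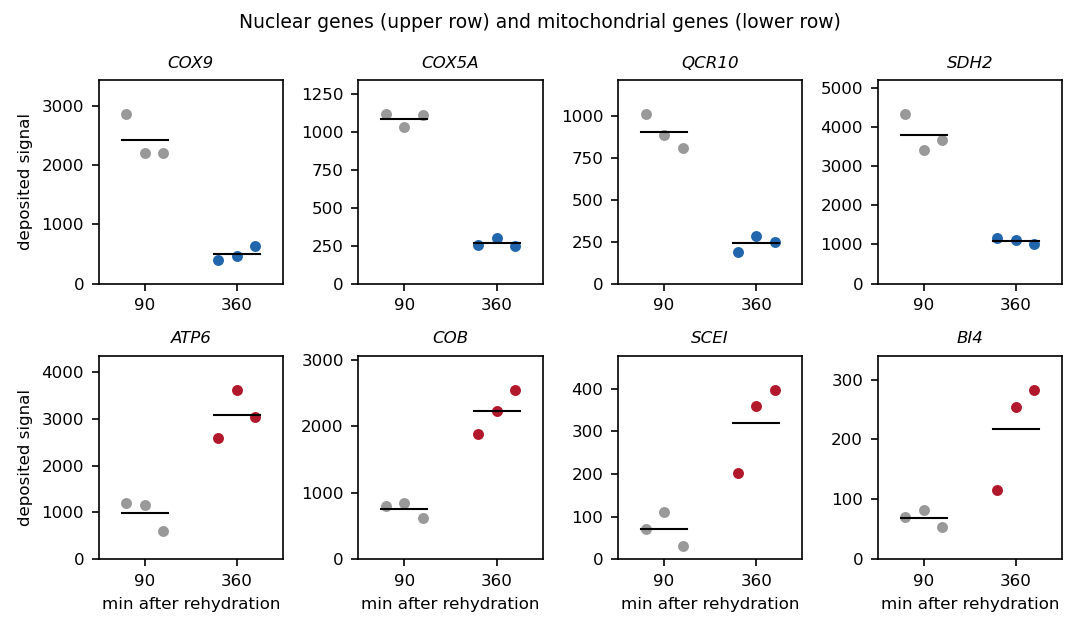
Deposited signal (linear axis from 0) of 8 genes on each array at 90 min (grey) and at 360 min (blue where the gene fell, red where it rose), with the mean of 3 arrays as a bar. COX9, COX5A, QCR10 and SDH2 from the nucleus fell by 1.94, 1.66, 1.56 and 1.5 on the log2 scale, while ATP6, COB, SCEI and BI4 from the mitochondrial genome rose relative to the other genes of the array; with arrays level on the hybridization controls these 4 stood between -0.10 and 0.52 and none was called.

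The citric acid cycle moved with the nuclear respiratory genes. Of 22 genes 3 fell and 0 rose, 18 lay below 0, and the median was -0.54 (-0.31 with median-centred arrays). With the deposited scaling 8 were called lower. SDH2, the iron-sulfur subunit of succinate dehydrogenase, read 4341.6, 3415.4 and 3668.1 at 90 min and 1176.3, 1113.7 and 1011.9 at 360 min. The groups were wide apart, and SDH2 fell by 1.5 ± 0.09 (limma, adjusted p = 0.00018). All 4 genes of the succinate dehydrogenase core were lower without overlap, between -1.5 and -0.79, and 2 of them fell. Such a lack of overlap, in either direction, held for 4354 of all 9275 probe sets. SDH5, needed to attach the flavin cofactor to that enzyme, read 561.0, 505.2 and 585.8 and then 97.6, 150.7 and 87.9 (-1.98 ± 0.21). In the opposite direction, IDP1, the mitochondrial isocitrate dehydrogenase that uses NADP, stood at 0.99, just short of the 2-fold minimum. Of 73 mitochondrial ribosomal protein genes, 2 fell (2.74%, against 3.88% of all nuclear protein-coding genes), none rose, and 59 lay below 0 (median -0.28). The 2 were MRPL1, by 1.2 ± 0.21, and MRPS28, by 1.10 ± 0.2. Neither was called with median-centred arrays (-0.81 and -0.99) or with 50% of the median signal added before taking log2 (-0.59 and -0.76).

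Cytosolic ribosomal protein genes were higher as a body. In the large subunit 8 of 47 measured genes rose and 0 fell, 46 lay above 0 and 37 passed the adjusted p at any size, and the median of 0.75 was -0.74 with arrays level on the hybridization controls. In the small subunit 8 of 34 rose and 0 fell, all 34 lay above 0 and 29 passed at any size, with a median of 0.71 that became -0.77 under the same scaling. The calls in the large subunit numbered 5 with the deposited scaling and 20 with median-centred arrays, and those in the small subunit 7 and 15. The other genes of these families have only probe sets that name several genes and are not counted. Of the probe sets standing for these genes, 14 in the large and 16 in the small subunit carry a suffix for probes shared between sequences, so paralogs can share signal.

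RPL22A, a protein of the large subunit, read 529.4, 844.9 and 561.2 at 90 min and 1863.5, 1444.2 and 1496.0 at 360 min. Every late array was above every early one, and RPL22A rose by 1.41 ± 0.17 (limma, adjusted p = 0.000932). RPS26B of the small subunit read 155.5, 217.9 and 146.7 and then 453.8, 514.1 and 535.4, the largest rise among these proteins at 1.68 ± 0.14 (limma, adjusted p = 0.000306). RPL29 and RPL17B rose by 1.22 ± 0.13 and 1.25 ± 0.09, the latter with both of its other probe sets above 0 at 1.44 and 0.79. RPS29A rose by 1.15 ± 0.28, but without the first 90 min array, which read 687.9 against 1685.6 and 1391.9, its difference was 0.79, and without the third 360 min array its adjusted p was 0.0506.

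**Figure D3:**
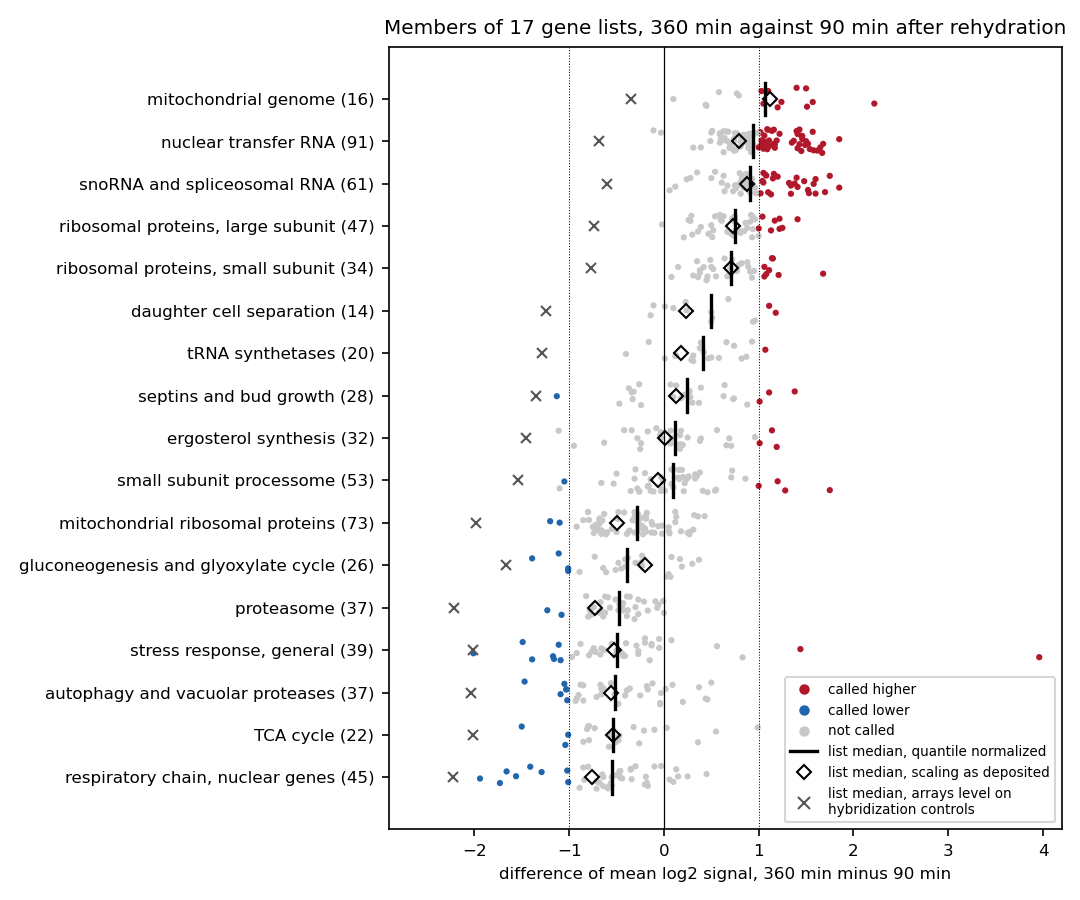
Each point is a gene, placed at its difference of mean log2 signal (360 min minus 90 min, 3 arrays each) in 17 gene lists, with the number of measured genes in brackets; dotted lines mark 2-fold. Black bars give the list medians after quantile normalization, from 1.07 for the mitochondrial genome to -0.55 for nuclear respiratory genes; diamonds and crosses give the medians with the deposited scaling and with arrays level on the hybridization controls, where every list median was under 0. HOR7, whose earlier signals were uneven, is the point at 3.96 in the general stress list.

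Small stable RNAs were higher in large part relative to the other genes, although their medians too were under 0 with arrays level on the hybridization controls. Of 61 genes for small nucleolar and spliceosomal RNAs, 26 rose and 0 fell, all 61 lay above 0, and the median was 0.91 (-0.60 under that scaling). These RNAs guide the modification and cleavage of ribosomal RNA or belong to the spliceosome. SNR66, a guide for methylation of ribosomal RNA, read 479.8, 502.0 and 337.5 at 90 min and 1124.8, 1437.8 and 1517.4 at 360 min, and rose by 1.75 ± 0.16 (limma, adjusted p = 0.000414). SNR46, a guide for pseudouridylation, read 366.0, 391.1 and 262.7 and then 1103.3, 1292.9 and 686.5 (1.7 ± 0.23). SNR69 read 168.8, 151.9 and 146.1 and then 946.2, 335.8 and 439.7 (1.85 ± 0.32), where the first late array alone was more than double the others. Of 91 nuclear transfer RNA genes 44 rose and 0 fell, against 25 higher with the deposited scaling, and the median of 0.94 became -0.68 with arrays level on the hybridization controls. For 88 of the 91, the probe set carries a suffix for shared probes, and all 44 called sets do, so they stand for families of transfer RNAs rather than single genes. Both probe sets of the telomerase RNA rose too. How far the signals of these small RNAs follow their amounts was not tested.

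Protein factors that assemble ribosomes did not move as a body. Among 53 genes of the small subunit processome and early assembly, 4 rose and 1 fell and the median was 0.10, which was -0.06 with the deposited scaling. Those that rose included core proteins of the small nucleolar RNA particles. NOP58, a core protein of the methylation guide particles, read 213.6, 427.1 and 340.6 at 90 min and 952.4, 911.8 and 1023.0 at 360 min, and rose by 1.75 ± 0.2 (limma, adjusted p = 0.000767). Its 3 other probe sets stood at 1.27, 0.53 and 0.41. GAR1, a core protein of the pseudouridylation guide particles, read 234.3, 244.2 and 220.2 and then 511.2, 503.6 and 457.6 (1.28 ± 0.1). NOP56, the partner of NOP58, rose by 1.2 ± 0.21, though with the deposited scaling its difference was 0.96. In the other direction RRP9, a protein of the U3 particle, stood at -1.05 ± 0.27, and it was under the threshold in 4 of the 6 repeats that leave out an array, which gave it -0.86 to -1.0 there.

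Of 31 subunits and factors of RNA polymerases I and III, 0 rose and 1 fell. The one was RRN3, the factor that brings RNA polymerase I to the ribosomal RNA promoter, which read 586.1, 644.2 and 640.8 and then 175.9, 187.0 and 189.4. Its 6 values formed tight and separate groups, and RRN3 fell by 1.37 ± 0.09 (limma, adjusted p = 0.000194). Of 67 large subunit assembly factors, 0 were called higher and 1 lower (median -0.03). That gene, DBP3, an RNA helicase, stood at -1.0 ± 0.27, was not called with the deposited (-0.92) or median scaling (-0.69), and lost its call in 5 of 6 repeats without an array, where it stood at -0.74 to -1.06. Of 20 transfer RNA synthetases, 18 lay above 0 and 1 rose, KRS1 for lysine at 1.07 ± 0.11, which stood at 0.99 without the first 90 min array. Their median was 0.41 after quantile normalization and 0.18 with the deposited scaling, and -1.29 with arrays level on the hybridization controls.

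Bud growth and cell separation genes rose in small numbers relative to the other genes, and their medians were also under 0 with arrays level on the hybridization controls (-1.35 and -1.24). Among 28 genes for septins and bud growth 3 rose and 1 fell, with 20 above 0 and a median of 0.24. RSR1, the small GTPase that marks the bud site, read 89.5, 96.0 and 89.1 at 90 min and 246.5, 191.9 and 230.0 at 360 min, and rose by 1.38 ± 0.15 (limma, adjusted p = 0.00071). Its other probe sets stood at 0.87 and 0.18. PEA2, a protein of the polarity complex, had low signals throughout, 73.0, 45.9 and 42.7 and then 26.5, 12.3 and 19.3 (-1.13 ± 0.23), and it stood at -0.95 without the first 90 min array. In the list of daughter cell separation 2 of 14 were called higher, SUN4 and BUD9, and 12 lay above 0, with a median of 0.50. With the deposited scaling the median was 0.23 and neither gene was called (0.92 and 0.84), and each lost its call without 1 array, SUN4 without the first at 360 min (1.0) and BUD9 without the first at 90 min (0.96). Of 47 cell wall genes 5 rose and 2 fell (median 0.02). EXG2 and CIS3, an exoglucanase and a mannoprotein of the cell wall, rose by 1.33 ± 0.12 and 1.25 ± 0.16. Of 32 genes of ergosterol synthesis 3 rose after quantile normalization, but with the deposited scaling ERG6 stood at 0.98, ERG4 at 0.89 and ERG3 at 0.80, and ERG3 stood at 0.87 to 0.98 in the 3 repeats without an array that ended its call.

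Of 22 G1 and S phase cyclins and regulators, CLN2 was the only call. This G1 cyclin, which drives the start of the cell cycle, read 15.3, 36.4 and 29.3 at 90 min and 119.5, 109.6 and 92.5 at 360 min, and rose by 1.63 ± 0.26 (limma, adjusted p = 0.00299). The early values are near the low end of the arrays, and with 50% of the median signal added before taking log2 the difference was 0.87. In growing control cells CLN2 had read 166.8 to 174.4. Further genes of G1, CLN3 and YOX1, passed the adjusted p at 0.72 and 0.90, short of 2-fold, and 1 gene of the list passed it as lower. The list had no common direction. In it 12 genes lay above 0 and 10 below, with a median of 0.04 (-0.11 with the deposited scaling). Genes of DNA synthesis lay slightly lower: 3 of 47 fell (6.38%, against 3.88% of nuclear protein-coding genes) and 0 rose. Their median was -0.30, against -0.16 over nuclear protein-coding genes, with 32 below 0. With the deposited scaling 11 were called lower. RAD53, the checkpoint kinase of replication stress, read 173.0, 190.2 and 183.5 and then 38.1, 59.5 and 55.9 (-1.59 ± 0.23), and was not called with 50% of the median added (-0.98). SMC3, a cohesin subunit, read 518.0, 481.0 and 518.2 and then 150.8, 157.4 and 197.7 (-1.22 ± 0.14). The histone H2B genes, which are nearly identical in sequence, were called in opposite directions, HTB1 at -1.09 ± 0.14 and HTB2 at 1.05 ± 0.1. Neither call held without each array in turn, with HTB1 at -0.94 without the first 360 min array and HTB2 at 0.99 without the third 90 min array.

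**Figure D4:**
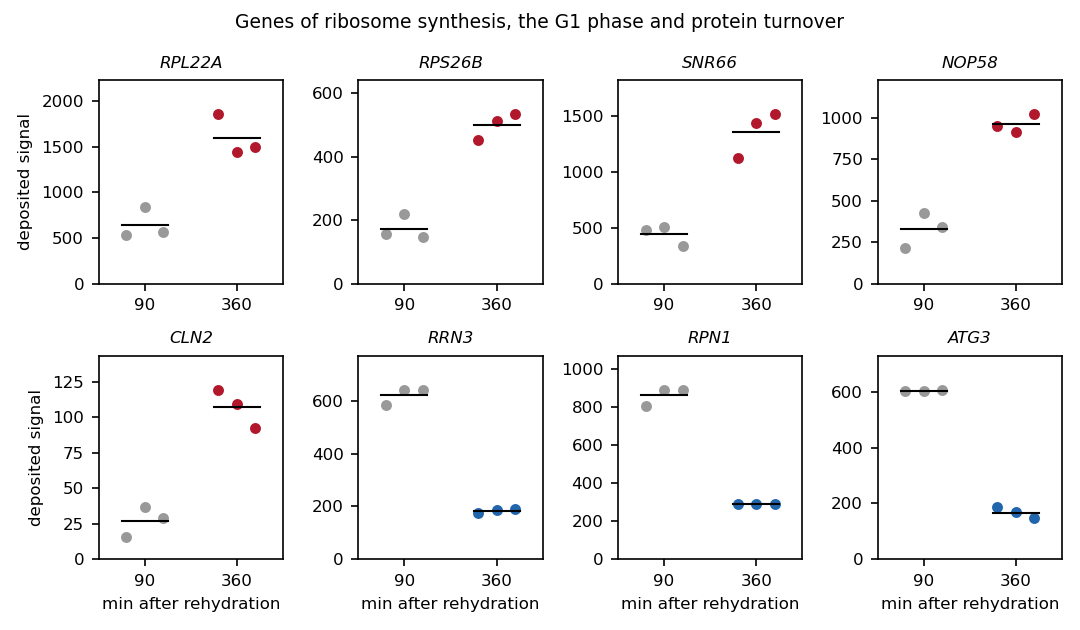
Deposited signal (linear axis from 0) of 8 genes on each array at 90 min (grey) and at 360 min (red where the gene rose, blue where it fell), with the mean of 3 arrays as a bar. RPL22A, RPS26B, SNR66, NOP58 and CLN2 rose relative to the other genes of the array, by 1.41 to 1.75 on the log2 scale, but stood between -0.16 and 0.13 with arrays level on the hybridization controls; RRN3, RPN1 and ATG3 fell by 1.23 to 1.47.

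Genes of protein breakdown were lower at 360 min. All 37 proteasome genes lay below 0 (median -0.47), and 26 of them passed the adjusted p at any size. Only 2 fell at least 2-fold (5.41%, against 3.88% of nuclear protein-coding genes). With the deposited scaling 6 did, and the median was -0.73. RPN1, a scaffold of the regulatory particle, read 805.3, 891.1 and 889.6 at 90 min and 289.3, 289.6 and 287.6 at 360 min, and fell by 1.23 ± 0.08 (limma, adjusted p = 0.00018). RPN12, another subunit of that particle, fell by 1.08 ± 0.22, and stood at -0.82 without the first 360 min array. The regulatory particle and the core particle, with 19 and 14 measured genes, had medians of -0.47 and -0.50.

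In the list of autophagy and vacuolar proteases 6 of 37 fell and 0 rose, with 30 below 0 and a median of -0.52, and 10 were called lower with the deposited scaling. ATG3, the enzyme that joins Atg8 to lipid on autophagosomes, read 602.4, 603.0 and 608.7 and then 185.6, 168.1 and 146.3, 2 tight groups with no overlap. It fell by 1.47 ± 0.11 (limma, adjusted p = 0.000242). The kinase gene ATG1, at the head of the autophagy pathway, fell by 1.03 ± 0.11 with signals of 581.5, 692.4 and 726.4 and then 273.9, 238.0 and 245.8, and stood at -0.97 without the third 90 min array and -0.98 without the second 360 min array. PAI3, an inhibitor of the vacuolar protease A, read 3006.5, 3560.8 and 5004.5 and then 1539.5, 1597.8 and 1638.3 (-1.09 ± 0.18), and without the third 90 min array, its highest, it stood at -0.87.

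General stress genes were mostly lower, with exceptions of opposite sign among the largest changes. Of 39, 7 fell and 2 rose, 34 lay below 0 and the median was -0.50. MOH1, a gene of stationary phase whose function is not well known, read 2452.7, 2300.8 and 2841.9 at 90 min and 262.6, 557.3 and 789.0 at 360 min, and fell by 2.01 ± 0.31 (limma, adjusted p = 0.00282). XBP1, a repressor of cyclin genes in starved and stressed cells, read 3204.5, 2352.8 and 2418.1 and then 763.9, 958.1 and 572.6 (-1.49 ± 0.18). Both genes were lower on every late array. DDR48, a gene induced by DNA damage and heat, read 1848.4, 1441.2 and 1268.3 and then 6324.6, 4754.7 and 7550.3 (1.44 ± 0.15), but its second probe set stood at -0.05. HOR7, a gene induced by salt, read 1287.5, 212.5 and 290.8 and then 23708.2, 11247.5 and 16170.8 (3.96 ± 0.57). The early HOR7 values were uneven here and in other groups, at 0.0 to 923.2 in cells dried to 50%. They ran from 0.0 to 156.7 in dry cells and from 2.1 to 184.1 at 45 min, so the size of its difference is uncertain. The call was lost when group variances were allowed to differ (limma, adjusted p = 0.0596), and the difference ran from 3.47 without the second to 4.72 without the first 90 min array.

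Other lists of the dry and stationary state lay below 0 with few calls. Of 23 stationary phase genes 1 fell (4.35%, against 3.88% of nuclear protein-coding genes). Of the 23, 21 lay below 0 and the median was -0.57. Their calls depended on the scaling, with 2 higher and 2 lower as deposited and 3 higher and 0 lower with median-centred arrays. YGP1, a secreted glycoprotein of stationary phase cells, was the gene that fell, from 4915.1, 4417.0 and 5135.1 to 2256.1, 1991.0 and 1931.6 (-1.16 ± 0.08, limma adjusted p = 0.000211), although it was not called with median-centred arrays. Among 10 hydrophilins and desiccation genes 0 were called in either direction, as none reached 2-fold, and the median was -0.71. At any size 2 were higher and 7 lower with a limma adjusted p under 0.05. HSP12, the hydrophilic membrane protein of stressed cells, is a bright gene whose difference rests on the scaling. Its signals were 7042.3, 4235.6 and 3268.0 at 90 min and 26589.1, 11107.5 and 21654.4 at 360 min, a difference of 2.01 as deposited and 0.83 ± 0.22 after quantile normalization. ADH2, the ethanol-oxidizing alcohol dehydrogenase, likewise went from 9613.9, 5851.5 and 6193.0 to 22496.0, 14684.6 and 18755.9, a difference of 1.38 as deposited and 0.17 after normalization. HSP12 and ADH2 were picked after their values had been seen.

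Defence against oxidants and iron uptake held 3 falls each and 0 rises, among 38 and 32 genes. These are 7.89% and 9.38%, against 3.88% of nuclear protein-coding genes. The list medians were -0.29 and -0.14, against -0.16 over nuclear protein-coding genes. In iron uptake 20 genes lay below 0 and 12 above, so that list as a whole showed no shift. With the deposited scaling 10 and 5 were called lower. GRX2, a glutaredoxin, read 1462.6, 1473.4 and 1366.0 at 90 min and 413.5, 535.2 and 458.8 at 360 min, and fell by 1.28 ± 0.09 (limma, adjusted p = 0.000211). TIS11, which destroys transcripts of iron-using proteins when iron is short, read 906.6, 766.2 and 753.2 and then 211.3, 216.5 and 193.5 (-1.57 ± 0.11). SMF3, which exports iron from the vacuole, and FTR1, the iron permease of the plasma membrane, fell by 1.29 ± 0.08 and 1.13 ± 0.1. The groups did not overlap for any of these 4 genes. Among heat shock chaperones 1 of 30 was called higher and 1 lower (4 lower with the deposited scaling), with 22 below 0, and the fall, HSP104 at -1.01 ± 0.11, ended a little under 2-fold (-0.95 to -1.0) in 4 of 6 repeats without an array. The list of trehalose and glycogen had a median of -0.18, and 1 of its 22 genes fell (4.55%, against 3.88% of nuclear protein-coding genes). That gene was GAC1, the subunit that directs a phosphatase to glycogen synthase, from 384.1, 373.8 and 387.5 to 91.7, 81.3 and 88.0 (-1.78 ± 0.12, limma adjusted p = 0.000211).

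Genes for growth on ethanol and other small carbon compounds lay lower, and those for sugar uptake showed no common direction. In the list of gluconeogenesis and the glyoxylate cycle 4 of 26 fell and 0 rose, with a median of -0.39 that was 0.03 with median-centred arrays. The calls were 2 higher and 5 lower with the deposited scaling and 4 higher and 3 lower with median-centred arrays. CYB2, the lactate dehydrogenase of mitochondria, read 1315.9, 1125.3 and 1074.9 at 90 min and 347.7, 351.6 and 343.2 at 360 min, and fell by 1.39 ± 0.09 (limma, adjusted p = 0.000194). ACS1, an acetyl-CoA synthetase, read 8540.7, 7219.2 and 8010.4 and then 5079.7, 4172.6 and 4432.5 (-1.11 ± 0.09), and was not called with the deposited scaling, at -0.80. Of 40 genes of fatty acid oxidation and peroxisomes 0 were called (median -0.32). At any size 1 was higher and 15 lower with a limma adjusted p under 0.05, and 2 and 21 with an unadjusted p under 0.05. Of 18 hexose transporters and sensors 0 were called as well (median 0.02). At any size 2 were higher and 1 lower with a limma adjusted p under 0.05, and 3 and 3 with an unadjusted p under 0.05. Among 24 genes of glycolysis and fermentation 2 were called higher, TDH3 and HXK2 (6 with median-centred arrays). TDH3, the main glyceraldehyde-3-phosphate dehydrogenase, read 3148.0, 348.5 and 54.2 and then 21550.9, 6926.4 and 14465.7. It was listed at 0.0 to 137.9 in growing control cells, at 0.0 to 91.9 at 15 min and at 723.5 to 1794.3 at 45 min, so no fold is given. Its limma adjusted p was 0.0358, and it missed the threshold in 5 of 6 repeats without an array, with adjusted p between 0.0609 and 0.0962, and with group variances allowed to differ (adjusted p = 0.132). HXK2, a hexokinase, stood at 1.14 ± 0.27, and was not called without the first 90 min array (adjusted p = 0.0566) or without the third, where it was 0.92.

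Biosynthetic lists held single calls in both directions. HIS1, the first enzyme of histidine synthesis, read 110.0, 192.0 and 142.0 at 90 min and 438.1, 384.0 and 437.0 at 360 min, and rose by 1.68 ± 0.17 (limma, adjusted p = 0.000513). It was the only one of 63 genes of amino acid synthesis to rise, and 2 fell, GLT1 for glutamate by 1.36 ± 0.13 and ILV2 for branched amino acids by 1.25 ± 0.22. SAH1, which clears the product of methylation reactions, read 86.9, 170.2 and 88.0 and then 267.3, 314.9 and 272.8 (1.49 ± 0.22). PHO3, an acid phosphatase that also serves thiamine uptake, read 118.6, 137.5 and 64.3 and then 285.7, 701.6 and 292.1 (1.98 ± 0.35), with the second late array far above the other 2. Of 31 genes for purines and pyrimidines, GUA1 and URA7 rose by 1.17 ± 0.1 and 1.24 ± 0.15 and URA10 fell by 1.44 ± 0.15, and the deposited scaling put GUA1 at 0.98.

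The largest single changes lay partly outside these lists. SSA1, a cytosolic chaperone of the Hsp70 family, was listed at 17.6, 0.1 and 0.0 at 90 min and at 14016.1, 10325.7 and 12242.8 at 360 min. On the 18 arrays before 360 min its signal lay between 0.0 and 153.2 and was under 1 on 15 of them, so no fold is given. The nearly identical SSA2 read 706.0, 956.2 and 678.7 and then 1195.4, 1134.6 and 1311.7 (0.81 ± 0.13). CCW12, a cell wall mannoprotein, read 1976.8, 477.2 and 51.6 and then 15818.0, 2639.6 and 10386.9 (3.45 ± 1.05, limma adjusted p = 0.0405). It was listed at 137.7 to 177.6 in growing control cells and at 1342.6 to 3577.4 at 45 min, so the size of its difference is uncertain. Like TDH3 it had a wide early spread, and it missed the threshold in 5 of 6 repeats without an array, with adjusted p between 0.0515 and 0.111.

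Among the falls, NGK1, a kinase of N-acetylglucosamine, read 98.9, 112.2 and 124.8 at 90 min and 3.8, 5.5 and 14.3 at 360 min, and fell by 2.48 ± 0.22 (limma, adjusted p = 0.000338). With signals this low at 360 min the size rests on the value added before the logarithm: the difference was -1.12 with 50% of the median added and -3.96 with 1%. SNT309, a splicing factor, and SWP82, a subunit of the SWI/SNF chromatin remodeller, fell by 2.12 ± 0.3 and 2.07 ± 0.31. With 50% of the median added SNT309 was not called (-0.97) and SWP82 stood at -1.05. UBC6, a ubiquitin-conjugating enzyme of the endoplasmic reticulum, read 257.7, 275.1 and 276.2 and then 38.7, 92.1 and 48.7 (-1.95 ± 0.32). XYL2, a xylitol dehydrogenase, read 619.6, 550.3 and 593.2 and then 119.5, 125.7 and 138.9, 2 tight groups, and fell by 1.82 ± 0.12 (limma, adjusted p = 0.000194). CNM67, a structural protein of the spindle pole body, fell by 1.68 ± 0.18. NDC80, a kinetochore protein, read 90.4, 244.9 and 416.8 and then 33.6, 36.6 and 51.1 (-2.08 ± 0.45), so the early arrays differed widely from one another. A probe set for the large ribosomal RNA, RDN25-1, fell by 1.94 ± 0.43 while the other probe set of that gene was higher by 1.66, and with group variances allowed to differ the fall was not called.

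By kind of probe set, 123 of 6291 for nuclear protein-coding genes were higher (1.96%) and 246 lower (3.91%). Of the 2443 that name no gene, 114 were higher (4.67%) and 12 lower (0.491%), with a median difference of 0.19 (-1.25 with arrays level on the hybridization controls), and their median level of 5.77 on the log2 scale was below that of the protein-coding sets at 8.06. Small nucleolar RNAs and transfer RNAs had 44.1% and 47.8% higher and 0 lower.

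As a check of the strain, URA3 lay between 1.0 and 3.9 on the 6 arrays. LEU2 lay between 5.6 and 59.4 and was called higher at 1.19 ± 0.28, with its other probe sets at -0.07 and -0.46, and missed the threshold without the first or the third 90 min array (adjusted p = 0.0578 and 0.0633). HIS3, whose deletion in this strain is partial, read 170.4 to 301.6 and checks nothing. Genes expressed in haploid cells were low in part. STE2 lay at 27.8 to 48.8 and BAR1 at 1.1 to 4.1, and STE3, MF(ALPHA)1, MF(ALPHA)2 and HO were under 60 on all 6 arrays. MFA1, MFA2 and RME1 were not low, at 88.6 to 254.8, 73.2 to 192.8 and 91.1 to 172.4. MF(ALPHA)1 was called higher at 1.29 ± 0.2 (limma, adjusted p = 0.00304), but not with 50% of the median added (0.50).

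Set along the whole course, these steps had different starting points. The median log2 level of the large subunit ribosomal proteins was 11.74 ± 0.21 in growing control cells, 9.51 ± 0.11 in dry cells, 9.63 ± 0.26 at 90 min and 10.60 ± 0.1 at 360 min (SD, n = 3 arrays). Bud growth genes went from 8.22 in control cells to 6.4 in dry cells, 6.90 at 90 min and 7.36 at 360 min. After quantile normalization both lists thus lay between the dry and the control level at 360 min, with no array of either group overlapping between 90 and 360 min. Nuclear respiratory genes stood at 10.59 in control cells, 11.03 in dry cells, 10.58 at 90 min and 9.91 at 360 min, and proteasome genes at 10.35, 10.54, 10.13 and 9.63, both lowest of these 4 groups at 360 min. Stationary phase genes were at 8.99 in control cells, 12.07 in dry cells, 12.10 at 90 min and 11.32 at 360 min. Mitochondrial genes were at 5.42 in control cells, 6.50 in dry cells, 7.40 at 90 min and 8.67 at 360 min, and nuclear transfer RNAs at 7.34, 8.08, 8.54 and 9.72, both highest at 360 min. These levels are a description without a test, and the control and dry arrays were read on other days than the 6 arrays compared. They are relative to the other genes of each array. The hybridization controls averaged 8.30 in control cells, 8.59 in dry cells, 9.37 at 90 min and 10.85 at 360 min as deposited. With arrays level on them, the medians from 90 to 360 min were -0.74 for large subunit ribosomal proteins and -1.35 for bud growth. Those of mitochondrial genes and transfer RNAs were -0.35 and -0.68.

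**Figure D5:**
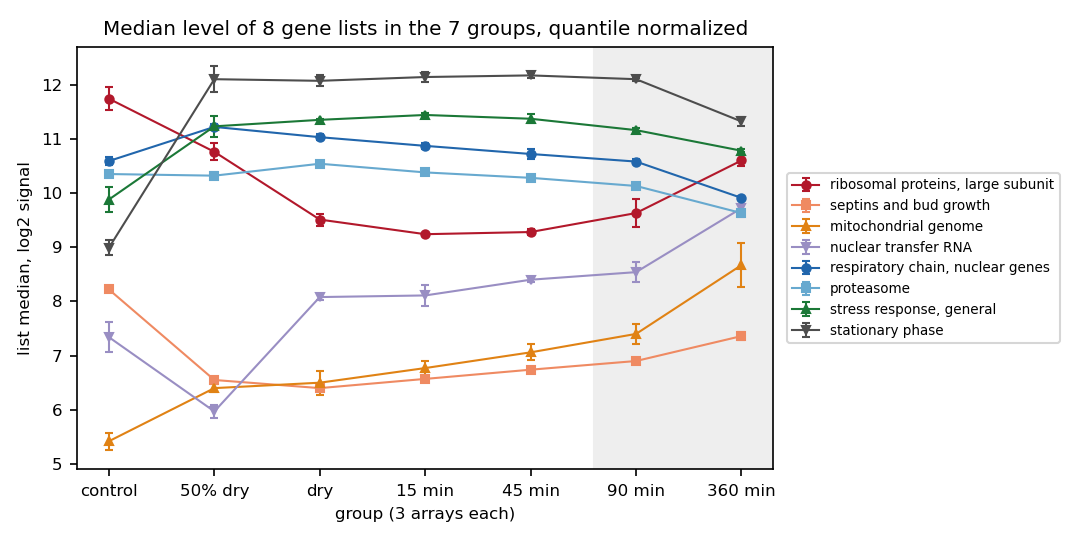
Median log2 signal (quantile normalized) of 8 gene lists in the 7 groups, as the mean of 3 arrays with SD bars; the shaded groups are those compared. The medians of ribosomal protein and bud growth genes went from 9.63 to 10.60 and from 6.90 to 7.36 between 90 and 360 min (lower at 360 min with arrays level on the hybridization controls), while nuclear respiratory, proteasome, stress and stationary phase genes were lower at 360 min.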

How the data were processed

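RNA was measured on Affymetrix YG_S98 arrays. The deposited table gives the authors' signal per probe set as an intensity on a linear scale. Per the labels, images went through Affymetrix's GeneChip software, and signals through Wilcoxon's signed rank test and a mixed model of probes fitted in steps. The version of that software, the scaling of the arrays and the genome build are not given in the sources used here. Run records, which hold no measurement, gave hybridization runs and scan days.

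Of 9335 probe sets, 60 control sets were left out. Platform annotation and a RefSeq gene table gave 6504 of the remaining 9275 sets 1 gene (5656 genes, 5134 with a standard name), 328 several and 2443 none. The value added before log2, 17.74, is 10% of the median of tested values (177.4). Arrays were quantile normalized over all 21. limma 3.58.1 in R 4.3.3 compared the 6 arrays (lmFit, eBayes with trend, 4 residual degrees of freedom), with p-values adjusted over all 9275 sets. Only these 6 arrays entered because the 360 min replicates spread more than the others. Python 3.11.15, numpy 2.4.6, pandas 2.3.3 and matplotlib 3.10.9 made tables and plots, and the calling was tested on simulated data.

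Named genes were the 15 largest rises and the 15 largest falls among called genes with a standard name and groups that did not overlap, up to 4 called members of each list with the largest change, and HIS3, LEU2 and URA3, 120 in all. Other genes named for their place in a list, and HSP12 and ADH2, were chosen after their values were seen. The comparison and the 49 lists, 2 of them by kind of RNA and added later, were chosen with earlier results of these data known. Same-numbered arrays of both groups had deviations from the group means that correlated at 0.136, 0.084 and 0.008, so the numbers were not taken to pair them. Alternatives changed the added value, scaling, fold minimum, trend, filter on dim sets, samples, array weights and replicate block, and left out each array. The number of arrays, 3 per group, limits the precision.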

Additional observations from a re-analysis of the deposited data

Results flagged for a closer look

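The hybridization control probe sets, which measure transcripts added to every sample and enter no comparison of genes, were brighter at 360 min than at 90 min by a mean of 1.47 on the log2 scale of the deposited signals. They carry a signal above that in growing control cells, where their mean was 8.30 ± 0.29 (SD, n = 3 arrays) against 9.37 ± 0.13 at 90 min and 10.85 ± 0.24 at 360 min. All 9 sets showed it on each of the 3 late arrays, from BioB-5 at 1.05 to BioDn-3 at 1.72. BioDn-3 read 3523.5, 2821.7 and 2655.4 at 90 min and 12503.2, 7952.6 and 9577.1 at 360 min.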

How the results depend on the processing

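The 341 higher and 267 lower calls became 163 and 101 with 50% of the median added before log2, 445 and 365 with 1%, 372 and 517 with the deposited scaling, 769 and 211 with median-centred arrays, 1341 and 1522 with no fold minimum, and 125 and 254 among nuclear protein-coding sets alone. With arrays level on the hybridization controls, chosen after seeing the data, they became 9 and 7605. By construction this lowers every difference of the deposited scaling by the same amount, 1.47. Relative to quantile normalization the lowering was unequal. The median went from -0.14 to -0.75 in the brightest 1% at 90 min and from -0.06 to -1.82 in the 50 to 75% class. Of 56 named rises 40 then stood under 0 and 4 were still called (SSA1, HOR7, TDH3 and CCW12). These 4 all had earlier signals that were uneven or near 0. All 62 named falls were called. Leaving out each array in turn gave 301 to 406 higher and 221 to 328 lower. The fit with the replicate number as a block gave 346 and 272; not every same-numbered pair correlated above 0.1, so this is no paired design. A block for hybridization run was not run, since no run held both groups. Other alternatives stayed within 1.5 times both counts. Of 118 called named genes, 85 stayed called without each array in turn, 90 under 3 scalings (quantile, deposited and median) and 57 under every alternative run on single genes. URA3 was not called and stood at -0.07 in the result reported, at 0.22 with median-centred arrays, and at -1.48 (called lower) with arrays level on the controls. Low signals limit the sizes of change, which rest on the value added before log2.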
